A study of Homo sapiens with 4 samples.

Results

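The genes described are *BANP*, which encodes the SMAR1 protein itself, and 8 genes for other proteins that bind matrix attachment regions (MARs), namely *SATB1*, *CUX1*, *HNRNPU*, *SAFB*, *SAFB2*, *ARID3A*, *HMGA1* and *HMGA2*. They are 9 of 20163 protein-coding genes and were listed by name. At each gene, every SMAR1 peak whose centre lay in the gene or within 10 kb on either side was taken from both peak lists, and where there was none the peak nearest to the transcription start site (TSS) was taken instead. SMAR1 occupancy was measured by chromatin immunoprecipitation followed by sequencing (ChIP-seq) in HCT116, a human colorectal carcinoma cell line, in a p53+/+ and a p53-/- form that differ in the presence of the tumour suppressor p53, with no further treatment named in the labels. Each line had 1 library precipitated with an antibody against SMAR1/BANP, whose peaks are described, and 1 normal rabbit IgG library, which was not analysed here. The HCT116 p53+/+ list held 5709 peaks (scores 50 to 1708.82, median 67.86) and the HCT116 p53-/- list 8217 (scores 50.03 to 3176.73, median 73.93), with a median length of 61 bp in both. The score is the one MACS gives each peak, the log10 of the peak's p-value multiplied by -10, and it grows with sequencing depth, so that scores are compared only by rank within a list. The lists hold no reads, so the reads behind a peak are not known here. By the study's methods the HCT116 p53-/- library was sequenced more deeply, and depth and p53 status cannot be told apart in the length of the lists or in the presence of a peak in 1 list. With 1 library per line no difference between the lines has a replicate check.

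MARs are AT-rich stretches by which chromatin loops are thought to be tethered to the nuclear matrix, and MAR binding proteins recruit chromatin modifiers to them. SMAR1 is known as a corepressor that brings in histone deacetylase complexes. The BANP protein is also known to bind a CGCG element found in CpG island promoters, whose core is the palindrome CTCGCGAG. SATB1 folds chromatin in T cells, CUX1 is a homeodomain repressor, HNRNPU (scaffold attachment factor A) and SAFB and SAFB2 bind RNA as well as DNA, ARID3A binds the MARs beside the immunoglobulin heavy chain enhancer, and HMGA1 and HMGA2 are small AT-hook proteins that bend DNA.

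Of the 13926 peaks in both lists, 11 lay at these genes. In HCT116 p53+/+ there were 7, with 6 at *BANP* and 1 at *CUX1*. The HCT116 p53-/- list had 4, with 2 at *BANP*, 1 at *CUX1* and 1 at *HMGA2*. Thus 2 of the 9 genes had a peak in HCT116 p53+/+, where 14.5% of all protein-coding genes had one, and 3 of 9 had a peak in HCT116 p53-/-, where 20.7% had one. *BANP* and *CUX1* had a peak in both lists, as did 7.92% of all protein-coding genes. No peak was listed within 10 kb of the other 6 genes in either line. *BANP* was the only one of the 9 with a peak at a promoter (centre within 1 kb of an annotated TSS of the gene), in both lines. Among all protein-coding genes, 3.21% had a promoter peak in HCT116 p53+/+ and 5.80% in HCT116 p53-/-. The windows of the 9 genes spanned 1163 kb and held 6.02 peaks per Mb in HCT116 p53+/+ and 3.44 in HCT116 p53-/-, against 1.96 and 2.94 over the windows of all protein-coding genes. The density rested on *BANP*, whose window held 40.5 and 13.5 peaks per Mb, whereas the remaining windows held 0.985 and 1.97.

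The sequences at *BANP* are shown first, since the position of its peaks against its exons and against the CGCG element is what sets them apart from the peaks at *CUX1* and *HMGA2*. All are from hg19, plus strand. The stretch of exon 1 that holds the CGCG core (capitals) lay inside the promoter peak of both lines and ran from chr16:87985044-87985073.

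*BANP* exon 1 around the CGCG core: cggcggcttctCTCGCGAGgacggacgcca

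Around this exon, the HCT116 p53-/- peak took in 37 bases upstream of the TSS (chr16:87985003-87985039) and 108 bases of intron 1 (chr16:87985122-87985229).

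*BANP* upstream of the TSS: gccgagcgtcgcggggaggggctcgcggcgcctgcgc

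*BANP* start of intron 1: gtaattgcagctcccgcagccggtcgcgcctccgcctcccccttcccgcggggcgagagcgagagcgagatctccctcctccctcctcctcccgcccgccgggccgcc

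In the peaks farther into the gene, exon bases are in capitals and intron bases in lower case. The exon 2 sequence starts at the translation start codon and runs to the end of the HCT116 p53-/- peak (chr16:88008722-88008841), and the HCT116 p53+/+ peak stopped at the last capital letter. The exon 3 (chr16:88014638-88014673), exon 5 (chr16:88037844-88038070) and exon 7 (chr16:88052031-88052277) sequences are whole HCT116 p53+/+ peaks.

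*BANP* exon 2: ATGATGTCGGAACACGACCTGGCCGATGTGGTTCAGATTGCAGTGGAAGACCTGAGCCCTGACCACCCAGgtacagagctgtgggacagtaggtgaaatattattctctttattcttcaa

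*BANP* exon 3: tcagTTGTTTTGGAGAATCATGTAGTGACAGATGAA

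*BANP* exon 5: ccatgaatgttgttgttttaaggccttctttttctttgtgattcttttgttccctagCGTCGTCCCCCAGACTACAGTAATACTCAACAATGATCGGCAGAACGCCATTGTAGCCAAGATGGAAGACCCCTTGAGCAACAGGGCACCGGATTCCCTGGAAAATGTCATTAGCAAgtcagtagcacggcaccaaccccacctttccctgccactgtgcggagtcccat

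*BANP* exon 7: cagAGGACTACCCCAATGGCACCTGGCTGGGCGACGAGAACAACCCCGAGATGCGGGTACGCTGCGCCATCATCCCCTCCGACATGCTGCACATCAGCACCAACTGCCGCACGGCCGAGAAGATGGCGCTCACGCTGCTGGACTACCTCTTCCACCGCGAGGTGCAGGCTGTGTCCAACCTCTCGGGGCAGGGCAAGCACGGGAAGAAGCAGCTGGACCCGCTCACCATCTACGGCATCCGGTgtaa

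*BANP* (ENSG00000172530) lies on the plus strand of chromosome 16 from 87982850 to 88110924, a span of 128 kb. Its MANE Select transcript, the 1 reference transcript per gene that the annotation singles out, starts at 87985040 and has 14 exons. All 6 HCT116 p53+/+ peaks and both HCT116 p53-/- peaks had their centre in one of these exons, although the exons add up to 2398 bp, or 1.87% of the gene. Of all peaks centred in a protein-coding gene, 6.43% in HCT116 p53+/+ and 5.45% in HCT116 p53-/- had their centre in a MANE Select exon. The HCT116 p53+/+ peaks touched 6 of the 14 exons (1, 2, 3, 5, 7 and 14) and the HCT116 p53-/- peaks 2 (1 and 2).

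**Figure D1:**
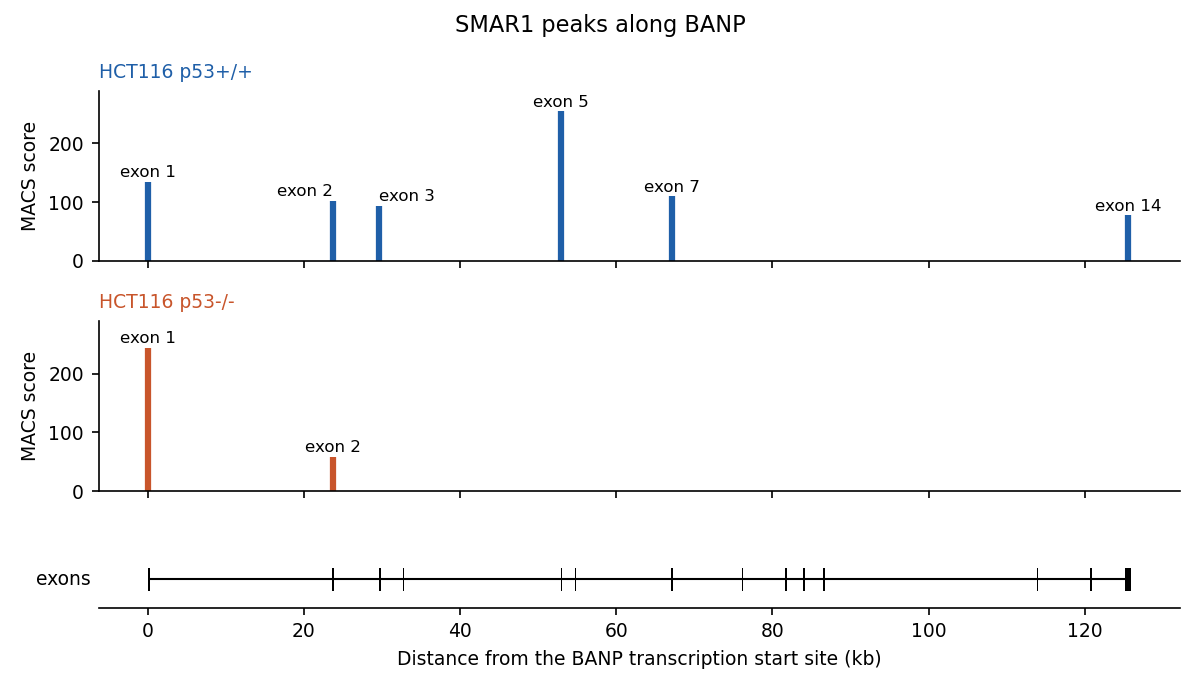
Peaks along *BANP* in HCT116 p53+/+ (top) and HCT116 p53-/- (middle), plotted by the distance of the peak from the MANE Select TSS in kb and by MACS score, above the 14 exons (black boxes, drawn to a minimum width). Bars are single peaks of 1 library per line, labelled by exon. Every bar stands over an exon, the exon 5 peak has the highest score in HCT116 p53+/+ (254.42) and the exon 1 peak in HCT116 p53-/- (243.84).

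The promoter peak was present in both lines with nearly the same borders. In HCT116 p53+/+ it ran from 87985016 to 87985221 (206 bp, score 134.47), with its centre 78 bp downstream of the TSS, and it ranked 284, so that 4.97% of the list scored at least as high. In HCT116 p53-/- it ran from 87985003 to 87985229 (227 bp, score 243.84), with its centre 76 bp downstream of the TSS, and it ranked 366, within the top 4.45%. The smaller peak lay wholly inside the larger, sharing 206 bp. Only 7.58% of the HCT116 p53+/+ peaks and 9.09% of the HCT116 p53-/- peaks were as long as 206 bp or longer. The GC content was 70.9% and 72.7%, respectively, against a median of 50% over the peaks of either list. Measured from the far 5′ end of the annotated gene, where another transcript starts, the same peaks lay 2268 and 2266 bp downstream. The nearest annotated *BANP* start was 25 and 23 bp from the centres, so the peaks met the promoter rule at the MANE Select start and at a neighbouring one, but not at the far 5′ end.

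The CGCG core CTCGCGAG, which reads the same on both strands, stood at 87985055 to 87985062 in untranslated exon 1, with its centre 18 bp downstream of the TSS. Of the peaks with a complete sequence, 2.25% (128 of 5684) in HCT116 p53+/+ and 2.63% (215 of 8186) in HCT116 p53-/- held the motif. The *BANP* promoter peak ranked 68 by score among those 128 and 138 among those 215, near the middle of each. All 128 motif peaks of HCT116 p53+/+ (100%) overlapped a HCT116 p53-/- peak, and 63.7% of the motif peaks of HCT116 p53-/- (137) overlapped a HCT116 p53+/+ peak, while over the whole lists 20.2% and 13.5% overlapped. The motif peaks scored high within their lists (median 147.055 in HCT116 p53+/+ and 461.94 in HCT116 p53-/-).

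None of the other 8 genes had the motif at its promoter. RefSeq promoter sequences (300 bases, from 250 before the start to 50 after it) were at hand for 7 of the 9 genes, *ARID3A* and *HMGA2* having no entry, and *BANP* was the 1 gene of the 7 that held CTCGCGAG, which occurred in 1.02% of all 35116 such promoters. In promoters of the same length cut from hg19 at MANE Select starts, which covered all 9 genes, 284 of 18922 (1.5%) held it. A peak lay within 1 kb of the TSS at 42.3% of the 284 promoters with the motif in HCT116 p53+/+ (120 promoters, 95% exact binomial interval 36.4 to 48.2) and at 61.3% in HCT116 p53-/- (174 promoters, 55.3 to 67.0). Without the motif, the shares were 1.69% (315 of 18638, 1.51 to 1.89) and 3.65% (680 of 18638, 3.38 to 3.93). The intervals cover counting error only. The motif was chosen with earlier results of these data known, and the promoters without it were not matched for GC content. Thus the gene for SMAR1 was one of a small class of promoters that carried both the CGCG core and a SMAR1 peak.

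**Figure D2:**
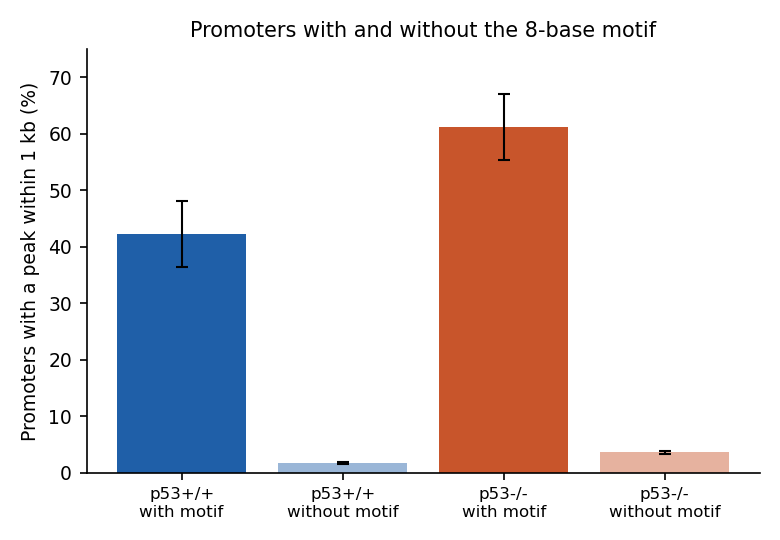
Percentage of MANE Select promoters with a peak centred within 1 kb of the TSS, for 284 promoters with and 18638 without the 8-base CGCG core, in both lines; bars are shares in 1 library and error bars are 95% exact binomial intervals. The bars with the motif stand at 42.3% and 61.3%, those without it at 1.69% and 3.65%.

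The second peak present in both lines lay at exon 2, 23.7 kb downstream of the TSS, the exon that holds the translation start. In HCT116 p53+/+ it ran from 88008680 to 88008791 (112 bp, score 102.55, rank 893, top 15.6%). It began 26 bp inside the 138 bp exon and ended on the last base of the exon. In HCT116 p53-/- it ran from 88008690 to 88008841 (152 bp, score 58.37, rank 6782), where 82.9% of the list scored at least as high, and it passed the end of the exon by 50 bp. The lists shared 102 bp here.

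The 4 remaining *BANP* peaks were listed in HCT116 p53+/+ alone. The exon 5 peak (88037844 to 88038070, 227 bp) had the highest score of any HCT116 p53+/+ peak at the 9 genes, 254.42 at rank 64, within the top 1.12% of the list. It lay 52.9 kb from the TSS, covered the 117 bp coding exon and reached 57 bp into the intron before it and 53 bp into the intron after it. The exon 7 peak (88052031 to 88052277, 247 bp, score 110.14, rank 703, 67.1 kb from the TSS) followed its 240 bp exon closely, starting 3 bp before it and ending 4 bp after it. The exon 3 peak (88014638 to 88014673, 36 bp, score 93.39, rank 1094) began 4 bp before its exon and covered 34.8% of it. It also lay 514 bp from the TSS of another annotated *BANP* transcript, and so met the promoter rule there. The exon 14 peak (88110527 to 88110617, 91 bp, score 77.69, rank 1942, 126 kb from the TSS) lay inside the 3′ untranslated part of the 727 bp last exon and had a GC content of 26.4%, the lowest of the 11 peaks. For these 4 peaks the nearest HCT116 p53-/- peak was 5.89 kb (exon 3), 29.2 kb (exon 5), 43.4 kb (exon 7) and 102 kb (exon 14) away.

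**Figure D3:**
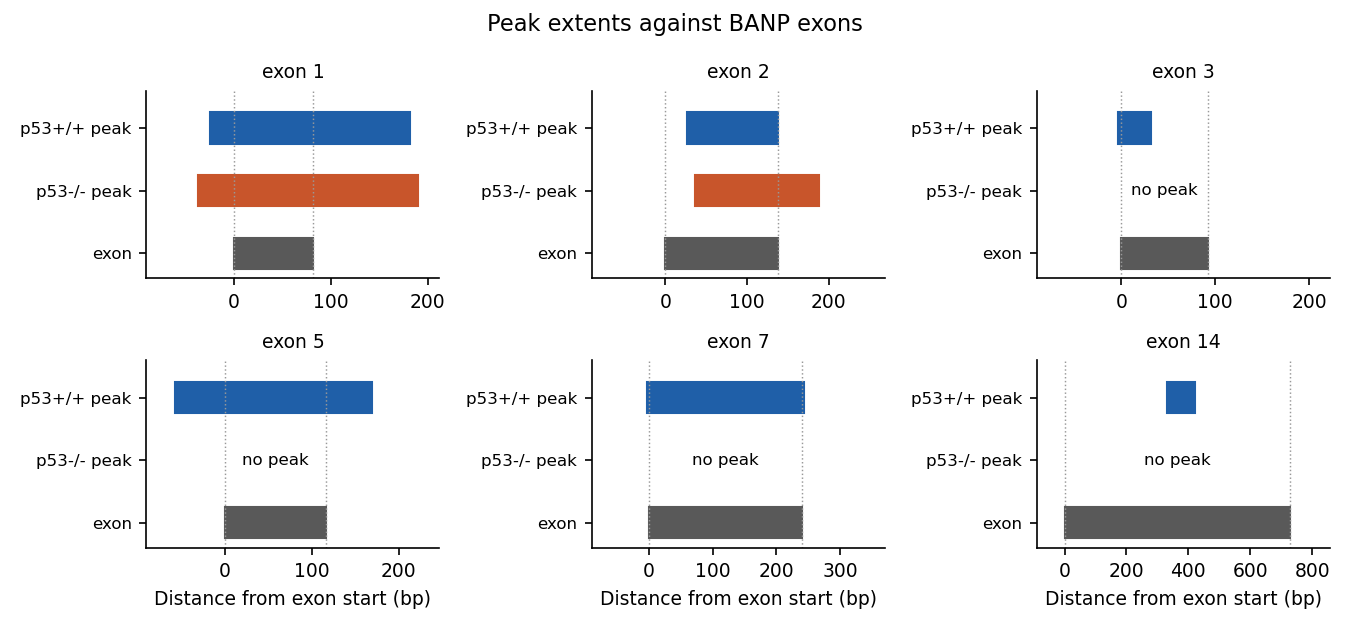
Extent of each *BANP* peak in HCT116 p53+/+ (blue) and HCT116 p53-/- (orange) against the exon it touches (grey), in bp from the start of the exon; dotted lines mark the ends of the exon. The exon 7 peak matches its exon within 4 bp at either end, the HCT116 p53+/+ exon 2 peak ends on the last base of the exon, and the exon 1 and exon 5 peaks run past both ends.

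In HCT116 p53+/+, 4 of the 6 *BANP* peaks (exons 2, 3, 7 and 14) lay at least 90% within 1 annotated exon of any transcript, against 7.79% (184 of 2363) of the peaks centred in protein-coding genes. Neither of the 2 in HCT116 p53-/- did, against 6.41% (227 of 3544). With MANE Select exons only, the count in HCT116 p53+/+ was 3, as the exon 3 peak lay 88.9% within its MANE Select exon. With exons of any transcript, at least 3 peaks lying 90% within 1 exon were found in 4 genes (0.0198%) of HCT116 p53+/+, and in 0% of genes of HCT116 p53-/-. Besides *BANP* they included *HSF1* (4 of its 4 peaks in the gene, scores 53.08 to 105.87), the gene of the heat shock transcription factor, and *RELA* (3 of 3, scores 54.99 to 82.94), which encodes an NF-kappaB subunit. These genes are named because they met this count, after its values were seen. A match at both ends, each edge within 10 bp of an end of the same exon, was rarer still, at 0.193% of the HCT116 p53+/+ peaks (11 peaks) and 0% of the HCT116 p53-/- peaks. Of the 11, 1 was the exon 7 peak of *BANP* and 2 lay in *HSF1*. The HCT116 p53-/- list had no peak at *HSF1* or *RELA*. From peak positions alone, fragments of genomic DNA and of a spliced copy of a gene cannot be told apart. In HCT116 p53+/+, the *BANP* peaks at exons 1 and 5 ran at least 24 bp past both ends of the exon. Those at exons 2, 3 and 7 had at least 1 edge within 4 bp of an exon end. The exon 14 peak lay inside its exon, with its edges 331 and 305 bp from the exon ends. The share of all peaks with 1 edge so close to an exon end was not counted. Which kind of fragment lay behind any of these peaks was not tested.

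The number of *BANP* peaks was high for its size. In HCT116 p53+/+, 7 protein-coding genes (0.0347%) had 6 or more peaks in the gene or within 10 kb, and *BANP* was the shortest of them. With 4 more peaks in HCT116 p53+/+ than in HCT116 p53-/-, it was among 10 genes with such a surplus or a larger one, whereas 40 genes had at least 4 more in HCT116 p53-/-, whose list was 1.44 times as long.

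The peaks at *CUX1* and *HMGA2* were of another kind. They lay in introns, far from the TSS, and held simple dinucleotide repeats. Like the *BANP* peaks at exons 3, 5, 7 and 14, they overlapped no peak of the other list. Over the whole lists, 20.2% of the HCT116 p53+/+ peaks and 13.5% of the HCT116 p53-/- peaks overlapped one. Capitals below mark the longest T(C/G) repeat of each *CUX1* and *HMGA2* peak, an uninterrupted run of TC or TG steps on either strand. Such a run can read GA or CA on the plus strand. The HCT116 p53+/+ *CUX1* sequence holds another run of the same length, left in lower case. The sequences lie at chr7:101585166-101585231 (HCT116 p53+/+), chr7:101859993-101860171 (HCT116 p53-/-) and chr12:66275418-66275454 (HCT116 p53-/-) of hg19, plus strand.

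*CUX1* intron 2, HCT116 p53+/+: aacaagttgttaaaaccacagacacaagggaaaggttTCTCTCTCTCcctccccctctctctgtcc

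*CUX1* intron 20, HCT116 p53-/-: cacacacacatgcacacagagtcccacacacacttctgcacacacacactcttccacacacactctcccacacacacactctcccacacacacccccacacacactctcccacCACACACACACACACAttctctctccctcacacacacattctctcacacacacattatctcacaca

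*HMGA2* intron 3, HCT116 p53-/-: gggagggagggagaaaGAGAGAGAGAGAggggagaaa

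*CUX1* (ENSG00000257923) spans 468 kb of chromosome 7, from 101459184 to 101927250. Its HCT116 p53+/+ peak was 66 bp long, lay 124 kb downstream of the TSS and scored 50.77, close to the lowest score of the list, at rank 5515 (96.7% of the list scored at least as high). Its HCT116 p53-/- peak was 179 bp long, lay 399 kb downstream of the TSS and scored 54.68 at rank 7276 (89.7%). The peaks were 275 kb apart, so that *CUX1* had a peak in both lines but no shared site. *HMGA2* (ENSG00000149948) spans 142 kb of chromosome 12, from 66218240 to 66360071. Its HCT116 p53-/- peak of 37 bp, 57.2 kb downstream of the TSS, also lay in the antisense gene *HMGA2-AS1*. It scored 109.92 at rank 1413, within the top 17.2% of the list and above the *CUX1* peak of the same list. In HCT116 p53+/+, the peak nearest to the *HMGA2* TSS lay 192 kb upstream of it (66026147 to 66026181, score 60.39, rank 3862).

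**Figure D4:**
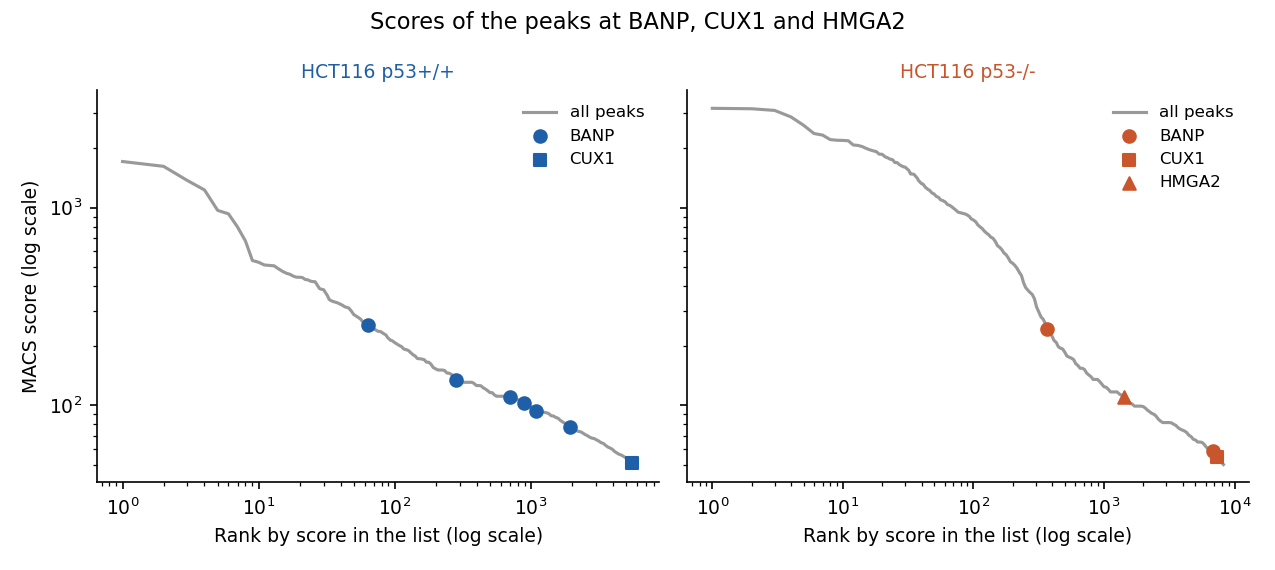
MACS score against rank in each list, both on log scales; the grey line is the whole list of 1 library and the symbols are the peaks at *BANP* (circles), *CUX1* (squares) and *HMGA2* (triangle). The *BANP* peaks of HCT116 p53+/+ lie between rank 64 and 1942, while the exon 2 peak of *BANP* and the *CUX1* peak of HCT116 p53-/- lie at ranks 6782 and 7276.

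The T(C/G) repeat that the study describes at SMAR1 sites was short in the *BANP* peaks. Over the whole lists, 59.4% (3377) of the HCT116 p53+/+ peaks and 76.0% (6220) of the HCT116 p53-/- peaks held such a run, counted from 12 bp. None of the 7 HCT116 p53+/+ peaks at these genes held one, the longest run being 10 bp in the *CUX1* peak and 4 to 6 bp in the *BANP* peaks. In HCT116 p53-/-, 2 of 4 held one, 16 bp at *CUX1* and 12 bp at *HMGA2*, and neither *BANP* peak did. Among the CGCG motif peaks of the whole lists, 2.34% in HCT116 p53+/+ (3 of 128) and 2.33% in HCT116 p53-/- (5 of 215) held a run of that length. The *BANP* promoter peak, with the motif and without a run of at least 12 bp, was therefore like nearly all peaks with the motif. The 12 bp minimum was set here, whereas the study's histogram of motif lengths starts at 6 bp. Counted from 6 bp, 4 of the 7 HCT116 p53+/+ peaks and 3 of the 4 HCT116 p53-/- peaks held a run, the *BANP* promoter peak among them in both. The share of the whole lists at that length was not counted.

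At the 6 genes without a peak in either line, the nearest peak lay between 42.5 and 604 kb from the TSS, where the medians over all protein-coding genes were 171 kb in HCT116 p53+/+ and 111 kb in HCT116 p53-/-. For *SATB1* (ENSG00000182568, chromosome 3, 18386869 to 18487113, minus strand), the peak nearest to the TSS was 464 kb upstream in HCT116 p53+/+ (18931113 to 18931186, score 71.54, rank 2469), and 83.5% of protein-coding genes had a closer one. In HCT116 p53-/- it was 119.8 kb downstream (18347022 to 18347103, score 84.47, rank 2618), with 52.4% of genes closer. *HNRNPU* (ENSG00000153187, chromosome 1, 245003940 to 245027862, minus strand) was the most remote of the 9 genes in both lines, at 604 kb in HCT116 p53+/+ (245631971 to 245632013, score 51.96, rank 5357) and 505 kb in HCT116 p53-/- (245532458 to 245532529, score 79.98, rank 3396). Of all protein-coding genes, 89.7% and 94.2% had a peak closer to the TSS than that.

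*SAFB* (ENSG00000160633, 5623046 to 5668489, plus strand) and *SAFB2* (ENSG00000130254, 5587010 to 5624057, minus strand) lie head to head on chromosome 19 with starts 307 bp apart, and hence shared their nearest peaks. These were 194 kb from the *SAFB* TSS in HCT116 p53+/+ (5817406 to 5817448, score 78.77, rank 1906) and 139 kb in HCT116 p53-/- (5761666 to 5761699, score 81.32, rank 3241), on the *SAFB* side in both. These distances were near the middle of all genes, with a closer peak at 54.8% of genes in HCT116 p53+/+ for either gene and at 57.2% (*SAFB*) and 57.3% (*SAFB2*) in HCT116 p53-/-. For *ARID3A* (ENSG00000116017, chromosome 19, 925781 to 975939, plus strand), the HCT116 p53+/+ list had a peak 42.5 kb upstream (883491 to 883534, score 75.07, rank 2088), and 16.7% of genes had a closer one. This was the shortest distance among the 6 genes. In HCT116 p53-/- its nearest peak was 169.5 kb downstream (1095350 to 1095808, score 786.72, rank 115), with 63.9% of genes closer. That peak had by far the highest score among the HCT116 p53-/- peaks nearest to a gene of the list. It overlapped a HCT116 p53+/+ peak and had its centre at -205 bp from the TSS of *POLR2E*, which encodes an RNA polymerase subunit. For *HMGA1* (ENSG00000137309, chromosome 6, 34204650 to 34214008, plus strand) the distances were 464 kb downstream in HCT116 p53+/+ (34669097 to 34669188, score 88.5, rank 1402) and 247 kb upstream in HCT116 p53-/- (33957274 to 33957340, score 62.72, rank 5880), with 83.5% and 76.9% of genes closer. Neither list thus placed SMAR1 near *HMGA1*, although its paralogue *HMGA2* had an intron peak in HCT116 p53-/-. A gene with no listed peak may still hold reads below the calling threshold, which the lists do not show.

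**Figure D5:**
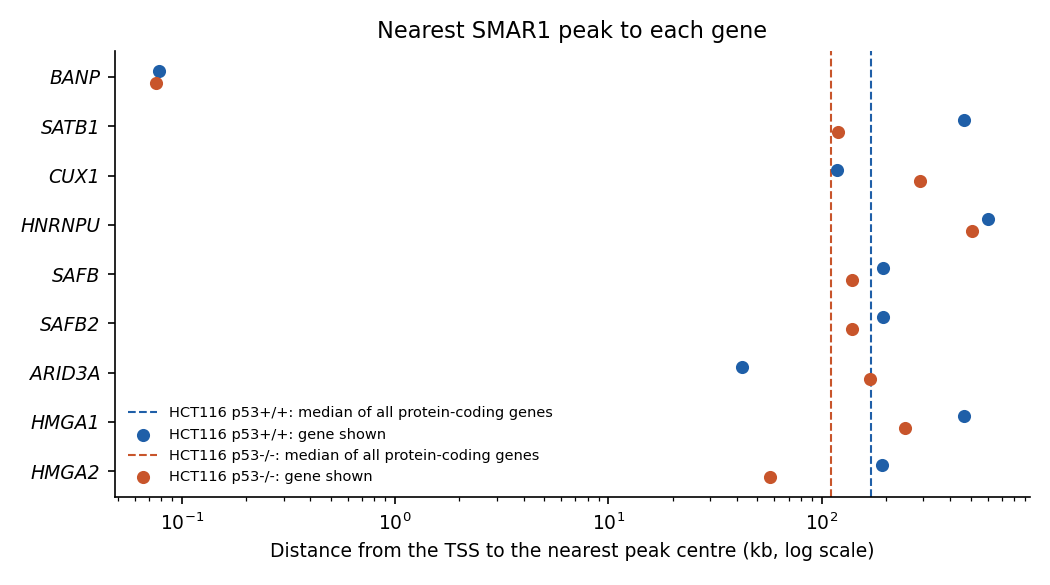
Distance in kb (log scale) from the MANE Select TSS of each of the 9 genes to the centre of the nearest peak, in or outside the gene, in HCT116 p53+/+ (blue) and HCT116 p53-/- (orange), 1 library each; dashed lines are the medians over all 20163 protein-coding genes (171 and 111 kb). *BANP* sits below 0.1 kb in both lines, and the other points lie between 42.5 kb (*ARID3A*) and 604 kb (*HNRNPU*).

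Of 22 further matrix and nuclear architecture factors, 2 had a peak in HCT116 p53+/+ (*CUX2* and *MATR3*) and 5 in HCT116 p53-/- (*CUX2*, *MATR3*, *LMNB2*, *CTCF* and *NCL*), against 14.5% and 20.7% of all protein-coding genes. A promoter peak was listed at 2 of the 22 in HCT116 p53+/+ and at 3 in HCT116 p53-/-, against 3.21% and 5.80%. Counts this small are given as a description. The *LMNB2* and *CTCF* peaks lay far from the MANE Select TSS, 37768 and 38786 bp downstream of it. They ranked low (score 56.63, rank 7012, and score 61.06, rank 6099) and held T(C/G) runs of 18 and 36 bp. At the promoter of *MATR3* (ENSG00000015479), which encodes the nuclear matrix protein matrin 3, a peak with the CGCG core was listed in both lines, on chromosome 5 from 138629312 to 138629493 (score 83.82, rank 1648) in HCT116 p53+/+ and from 138629113 to 138629586 (score 486.88, rank 219) in HCT116 p53-/-. The *MATR3* peaks overlapped, as the promoter peaks of *BANP* did. *CUX2* (ENSG00000111249), the paralogue of *CUX1*, had a short overlapping peak without the core in both lines, 571 bp downstream of the TSS in HCT116 p53+/+ (score 78.25, rank 1929) and 573 bp in HCT116 p53-/- (score 106.33, rank 1467). *NCL*, the gene of nucleolin, had a promoter peak in HCT116 p53-/- (chromosome 2, 232328802 to 232328973, score 66.22, rank 5047). From a second list, of 10 SMAR1 partners and earlier described targets, *HDAC2* is described here. It encodes a histone deacetylase and had a peak beyond its 3′ end in both lines, as 7.92% of all protein-coding genes had a peak in both. These *HDAC2* peaks overlapped and ranked low (score 58.14, rank 4165 in HCT116 p53+/+, and score 54.51, rank 7375 in HCT116 p53-/-). They lay 40390 and 40408 bp downstream of the MANE Select TSS, and each held a T(C/G) run of 34 bp.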

How the data were processed

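ChIP-seq peaks of 1 anti-SMAR1 library per cell line were analysed. Per the submitters' processing notes and the paper's methods, the authors trimmed reads with cutadapt 1.2.1, aligned them to hg19 with Bowtie2 2.2.1 and called peaks per library with MACS 1.4.2, then filtered on fold enrichment, a column the lists lack. The deposited lists hold positions and the MACS score. Whether IgG served as control is not given in the sources used here. Because scores are not scaled for depth and the methods give a deeper HCT116 p53-/- library, ranks within a list were used.

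Positions were made 1-based and compared with GENCODE release 44 on hg19. Gene, exon and promoter were assigned at the peak centre, lists overlapped from 1 bp, and runs were scanned in the 5684 and 8186 peaks with a complete sequence. RefSeq promoters (GRCh38.p14) gave sequence only. All 9 genes are named with every peak, and of 2 further lists those with a promoter peak, except 1 item that is not reported here. The genes, lists and motif were chosen with earlier results of these data known. No p-value was computed, as each line has 1 library. The functions for overlap, exon share and runs were tested on simulated data. Python 3.11.15, scipy 1.17.1 and matplotlib 3.10.9 were used.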

Additional observations from a re-analysis of the deposited data

How the results depend on the processing

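Of 52 alternative values, 38 stayed within 1.5 times of the value given. The following did not. With scores of at least 100, HCT116 p53+/+ had 4 peaks at the 9 genes, at 1 gene, and HCT116 p53-/- had 2 peaks. With scores at or above the median of the list, the genes with a peak in HCT116 p53+/+ were 1, the HCT116 p53-/- peaks 2 and those with a T(C/G) run 1, and 1 peak of each list overlapped the other. With the 5′ end of the gene as the only TSS, 0 genes had a promoter peak in either line. With runs of at least 6 bp, 4 of the HCT116 p53+/+ peaks held one, and with runs of at least 20 bp, 0 of the HCT116 p53-/- peaks did. Among alternatives chosen after seeing the data, leaving out peaks at least 90% within 1 exon left 3 in HCT116 p53+/+, and a share of 50% within 1 exon gave 1 *BANP* peak in HCT116 p53-/-. No paired analysis was possible because each cell line has 1 library with a peak list; for the same reason no library was left out.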
